A study of Mus musculus with 6 samples.

Results

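The 9 genes described here, Alpl, Thbd, Gnrh1, Rab3il1, Pmch, Cyp2s1, Psmb10, Jph4 and Heyl, are listed markers of the stratum intermedium and stellate reticulum, the layers of the enamel organ that lie outside the ameloblasts. They were taken by name from the 24959 genes of the deposited table, and all 9 were found and tested. Pmch passed the filter on low counts only through its cKO libraries, and the other 8 passed in both groups. The stratum intermedium is the cell sheet that rests on the ameloblasts, is rich in alkaline phosphatase and is a site of Notch signaling. The stellate reticulum is the loose tissue of star-shaped cells between it and the outer enamel epithelium. Both layers are thought to supply and support the ameloblasts, which secrete enamel.

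RNA labelled as coming from mouse dental epithelial cells at postnatal day 0 was sequenced in 3 libraries labelled cKO with the genotype PKM knockout (called Pkm cKO below) and 3 labelled control with the genotype WT. Pkm encodes the M-type pyruvate kinases, the enzymes that make pyruvate at the end of glycolysis. The sources used here do not give the Cre driver, the deleted exon, the strain or any pooling of animals, and the libraries are labelled as biological replicates. Replicates may therefore share a litter or a preparation, and p-values judge a group difference only against the spread between these libraries. Total counts were 30588350 to 39085792 in cKO libraries and 38130829 to 39415700 in controls. Pkm, the targeted gene, stood at 309, 395 and 350 CPM in cKO libraries, against 1281, 1185 and 1049 CPM in controls (CPM, counts per 1e6 reads of the scaled library). General epithelial markers summed to 9010 to 10043 CPM in cKO libraries and 12055 to 14338 CPM in controls, and genes of odontoblasts and dental mesenchyme to 14997 to 42342 CPM in cKO libraries and 21498 to 35207 CPM in controls, so the samples held more than epithelium. Pkm cKO replicate 3 stood apart with 2764 CPM of skeletal muscle genes, against 69.1 and 15.8 CPM in the other cKO libraries and 2.15 to 4.08 CPM in controls.

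None of the 9 genes passed the threshold, an adjusted p under 0.05 in edgeR's quasi-likelihood test (0 of 9), where 0.552% of all tested genes did. At an unadjusted p under 0.05, 3 of the 9 passed (Thbd, Rab3il1 and Pmch), against 17.5% of all tested genes. DESeq2 called the same 3 genes, but it called 1118 of all 15930 tested genes, where edgeR called 88. With limma-voom 0 of the 9 were called, and 2 of all tested genes. A difference in Pmch was in part set by the filter it passed, so its place in these counts supports nothing. In 4 of the 9, Thbd, Rab3il1, Pmch and Psmb10, every cKO library lay above every control, and in 0 did every cKO library lie below. Such a gap between the groups was found in 23.3% of all tested genes, in 11.2% with the cKO libraries higher and in 12.2% with them lower. The fitted log2 fold changes of the 9 (cKO minus control) were above 0 for 6 and below 0 for 3, with a median of 0.46 against 0.0068 for all tested genes. The median size of the change without its sign was 0.77 for the 9 and 0.28 for all tested genes. Both medians of the 9 include Pmch. With a filter of at least 1 CPM in 3 samples, which Pmch did not pass, the signed median was 0.40.

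**Figure D1:**
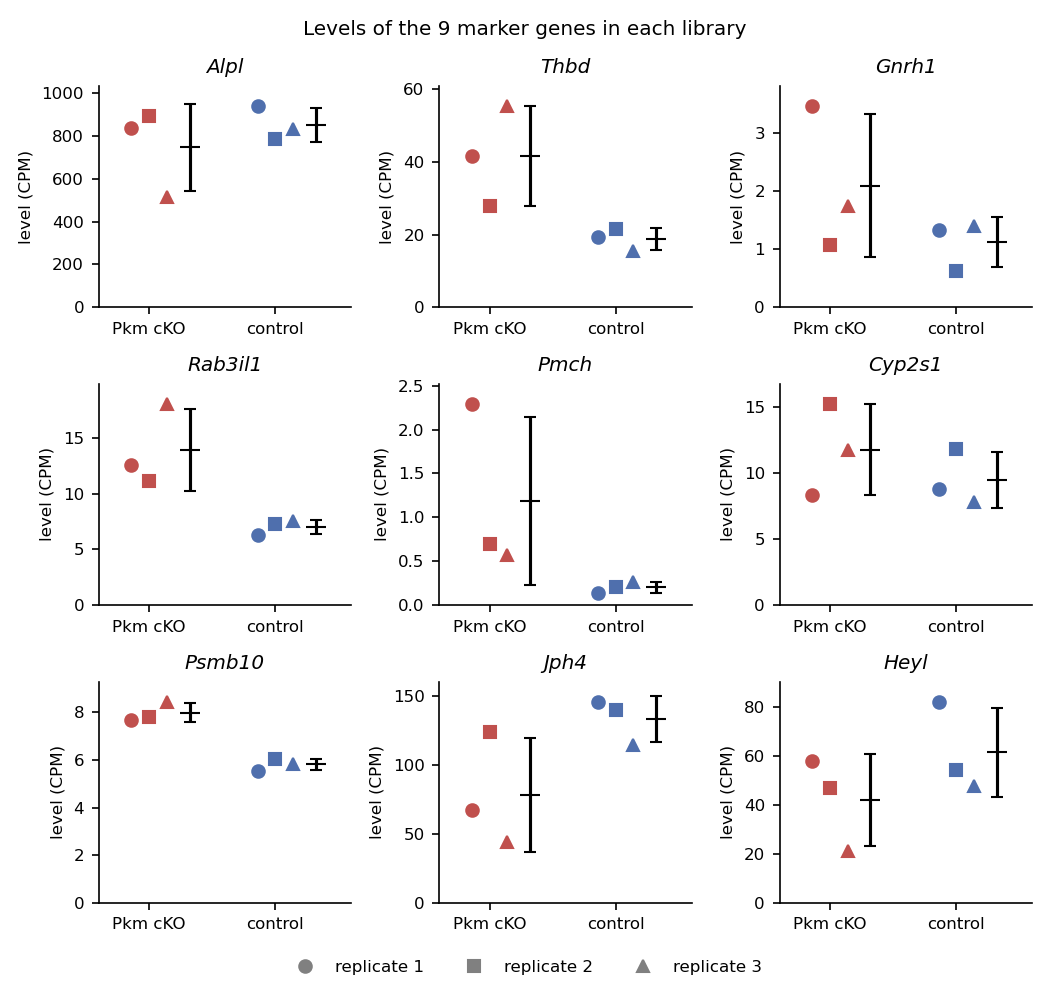
Level of each of the 9 marker genes in CPM (vertical axes, each starting at 0) in the Pkm cKO and control libraries; marker shapes are replicates 1 to 3 and the black bars give the mean ± SD of 3 libraries. The cKO libraries lie above all controls for Thbd, Rab3il1, Pmch and Psmb10, and Alpl, Jph4 and Heyl are lowest in Pkm cKO replicate 3.

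The 9 genes differed widely in level. Divided by exon length, Alpl came first in both groups, with 185 ± 50.5 CPM per kilobase in cKO libraries and 211 ± 19.7 CPM per kilobase in controls (SD, n = 3 each). Jph4 followed in controls, with 11.1 ± 5.84 CPM per kilobase in cKO libraries and 18.9 ± 2.37 CPM per kilobase in controls. Next in controls came Heyl, with 8.26 ± 3.68 CPM per kilobase in cKO libraries and 12.1 ± 3.57 CPM per kilobase in controls. Thbd stood at 11.2 ± 3.68 CPM per kilobase in cKO libraries and 5.05 ± 0.813 CPM per kilobase in controls. Thus the control ranges of Jph4, Heyl and Thbd did not overlap with their neighbours in this order, whereas in cKO libraries Jph4 overlapped with Heyl and Heyl with Thbd. Psmb10 stood at 4.68 ± 0.237 CPM per kilobase in cKO libraries and 3.41 ± 0.141 CPM per kilobase in controls. Next came Cyp2s1, Gnrh1 and Rab3il1, which averaged 1.99 to 3.26 CPM per kilobase in cKO libraries and 1.00 to 1.92 CPM per kilobase in controls, and neighbours among them overlapped in both groups. Pmch was the lowest, with 1.59 ± 1.28 CPM per kilobase in cKO libraries and 0.268 ± 0.0826 CPM per kilobase in controls, and it overlapped with Rab3il1 in cKO libraries only.

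Alpl encodes tissue-nonspecific alkaline phosphatase, which frees phosphate from pyrophosphate and is the classical enzyme marker of the stratum intermedium. It is also made by odontoblasts and osteoblasts. It stood at 837, 892 and 515 CPM in cKO replicates 1 to 3, against 939.9, 785 and 832 CPM in controls. The groups overlapped, and only Pkm cKO replicate 3 lay below all controls. The mean was 748 ± 204 CPM in cKO libraries and 852 ± 79.5 CPM in controls, a log2 fold change of -0.19 (SE 0.207, edgeR adjusted p 0.682). Without Pkm cKO replicate 3 the log2 fold change was 0.030. The 10 tested genes of phosphate and pyrophosphate handling held 0 past the threshold, with 6 above 0, 4 below and a median log2 fold change of 0.38. Slc20a1, a phosphate importer, had the lowest p of that list, with 76.9 ± 5.84 CPM in cKO libraries and 116 ± 8.34 CPM in controls and groups that did not overlap (log2 fold change -0.59, SE 0.141, edgeR adjusted p 0.0889). Abcc6, a transporter that promotes ATP release, had 1.16 ± 0.654 CPM in cKO libraries and 0.391 ± 0.217 CPM in controls. Spp1, the matrix phosphoprotein osteopontin, had 462, 75.6 and 177 CPM in cKO libraries, against 38.6, 53.5 and 81.4 CPM in controls, with groups that overlapped.

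Heyl encodes a basic helix-loop-helix repressor that is a direct target of Notch receptors. Its level was 58.0, 47.2 and 21.4 CPM in cKO libraries, against 82.4, 54.6 and 47.9 CPM in controls. Pkm cKO replicate 1 lay within the control range and the other 2 cKO libraries lay below it. The log2 fold change was -0.55 (SE 0.369, edgeR adjusted p 0.496), and without Pkm cKO replicate 3 it was -0.22. Other genes of the Notch pathway did not pass either: of 20 tested, 0 were called, 8 were above 0 and 12 below, with a median of -0.087. Jag1, a Notch ligand, had 163, 93.5 and 158 CPM in cKO libraries, against 194, 195 and 166 CPM in controls, so every cKO library lay below every control (log2 fold change -0.42, SE 0.210, edgeR adjusted p 0.333). Maml2, a coactivator of the Notch complex, had 25.2 ± 0.581 CPM in cKO libraries and 32.9 ± 3.17 CPM in controls. The ligand gene Dll1 had 24.8, 24.4 and 15.9 CPM in cKO libraries, against 11.5, 17.8 and 15.7 CPM in controls, with groups that overlapped. The closest relatives of Heyl, named for that reason, overlapped between the groups: Hey1 had 76.5 ± 19.7 CPM in cKO libraries and 95.4 ± 27.1 CPM in controls, and Hey2 5.99 ± 2.37 CPM in cKO libraries and 7.08 ± 1.04 CPM in controls. 

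Thbd encodes thrombomodulin, a surface receptor for thrombin that turns on protein C. Besides the enamel organ it is typical of endothelium. It stood at 41.6, 27.9 and 55.3 CPM in cKO libraries, against 19.4, 21.5 and 15.5 CPM in controls. All cKO libraries lay above all controls, with Pkm cKO replicate 2 nearest to them. The mean was 41.6 ± 13.7 CPM in cKO libraries and 18.8 ± 3.03 CPM in controls, a ratio of 2.21. The log2 fold change was 1.14 (SE 0.255), and the edgeR adjusted p of 0.0786, the lowest of the 9, did not pass. It was 0.89 without Pkm cKO replicate 3. Thbd passed without Pkm cKO replicate 2 (log2 fold change 1.37, edgeR adjusted p 0.0329) and with DESeq2 (adjusted p 0.00169). Over all 15 alternatives its log2 fold change stayed between 0.89 and 1.61 and its adjusted p between 0.00169 and 0.345. Endothelial markers, 12 of 12 tested, held 0 genes past the threshold, with 10 above 0, 2 below and a median of 0.27. Groups overlapped in every gene of that list, which summed to 543, 522 and 882 CPM in cKO libraries, against 573, 487 and 559 CPM in controls. Among the endothelial genes Robo4 had 28.4, 25.9 and 53.0 CPM in cKO libraries, against 21.9, 24.0 and 26.9 CPM in controls.

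The other genes of the protein C system and of thrombin reception went in different directions. Of 7 tested, 0 passed, 4 were above 0 and 3 below, with a median of 0.19. F2r, the main thrombin receptor, stood at 437, 263 and 221 CPM in cKO libraries, against 770, 625 and 533 CPM in controls (log2 fold change -1.07, SE 0.257, edgeR adjusted p 0.0954). Its groups did not overlap, with the cKO libraries lower. Pros1, the cofactor protein S, stood at 75.2, 35.5 and 85.4 CPM in cKO libraries, against 30.3, 30.5 and 33.9 CPM in controls (log2 fold change 1.05, SE 0.288, edgeR adjusted p 0.121), with the cKO libraries higher. Tfpi, an inhibitor of coagulation, had 9.23 ± 4.59 CPM in cKO libraries and 5.38 ± 1.20 CPM in controls.

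Rab3il1 encodes a guanine nucleotide exchange factor of Rab GTPases that govern secretory vesicles. It stood at 12.6, 11.1 and 18.1 CPM in cKO libraries, against 6.32, 7.25 and 7.55 CPM in controls. All cKO libraries lay above all controls, and Pkm cKO replicate 3 was the highest. The log2 fold change was 0.99 (SE 0.253, edgeR adjusted p 0.101, DESeq2 adjusted p 0.00648), and 0.76 without Pkm cKO replicate 3. The Rab3 and Rab8 list held 0 of 9 tested genes past the threshold, with 5 above 0, 4 below and a median of 0.011. In that list Rab27a, a vesicle-docking GTPase, had 14.2 ± 3.23 CPM in cKO libraries and 24.5 ± 6.24 CPM in controls. Its paralog Rab27b had 9.27 ± 2.75 CPM in cKO libraries and 6.24 ± 0.328 CPM in controls, and the secretory GTPase Rab3d 21.9 ± 8.68 CPM in cKO libraries and 16.1 ± 1.38 CPM in controls.

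Psmb10 encodes a catalytic subunit of the immunoproteasome, the proteasome form typical of immune and interferon-exposed cells. Relative to its mean it varied least between replicates among the 9, with 7.69, 7.82 and 8.44 CPM in cKO libraries, against 5.55, 6.03 and 5.84 CPM in controls. The groups did not overlap, and the difference was small, with a log2 fold change of 0.46 (SE 0.241, edgeR adjusted p 0.359). Its sister subunit Psmb8, named for that reason, had 3.67 ± 0.802 CPM in cKO libraries and 2.24 ± 0.624 CPM in controls, and Psmb9 had 0.690 ± 0.256 CPM in cKO libraries and 0.713 ± 0.536 CPM in controls. Of 13 tested genes of the immunoproteasome and antigen processing, 0 passed, 8 were above 0 and 5 below, with a median of 0.19. Tap2 and Tap1, the subunits of the peptide transporter, had 12.8 ± 4.19 and 14.3 ± 5.65 CPM in cKO libraries, against 6.89 ± 1.35 and 9.60 ± 1.23 CPM in controls. Psme1, a proteasome activator subunit, had 58.1 ± 8.30 CPM in cKO libraries and 42.2 ± 6.46 CPM in controls.

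Markers of immune cells were also higher in cKO libraries, as a sum. Of 14 tested, 1 passed the threshold and 13 were above 0. In 8 of the 14 every cKO library lay above every control, against 11.2% of all tested genes. Summed, they stood at 214, 135 and 226 CPM in cKO libraries, against 88.6, 87.6 and 84.6 CPM in controls. C1qc, a complement gene of macrophages, passed the threshold, with 17.1 ± 0.746 CPM in cKO libraries and 7.34 ± 1.03 CPM in controls (log2 fold change 1.22, SE 0.214, edgeR adjusted p 0.0487). Csf1r, the receptor that sustains macrophages, had 46.7 ± 15.8 CPM in cKO libraries and 15.4 ± 3.94 CPM in controls, with every cKO library higher. Pkm cKO replicate 2 was the lowest cKO library for this sum, for Thbd and for Rab3il1, whereas Psmb10 was lowest in replicate 1. This order was not particular to immune cells. Among cKO libraries the endothelial, mural, skeletal muscle, erythroid and outer enamel epithelium sums were also lowest in replicate 2. None of the list's genes was at 0 in all libraries, and the T cell gene Cd3e was too low to test. The part of immune cells in the values of Thbd, Rab3il1 and Psmb10 was not tested.

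Jph4 encodes a junctophilin, a protein that tethers the endoplasmic reticulum to the plasma membrane and is best known from neurons. It stood at 67.3, 124 and 44.0 CPM in cKO libraries, against 146, 140.2 and 115 CPM in controls. Pkm cKO replicate 2 lay within the control range and the other 2 cKO libraries lay far below it. The log2 fold change was -0.77 (SE 0.347, edgeR adjusted p 0.309). Without Pkm cKO replicate 2 it was -1.26 and passed (edgeR adjusted p 0.0475), and without Pkm cKO replicate 3 it was -0.47. Of 13 tested genes of contacts between endoplasmic reticulum and plasma membrane and of calcium release, 0 passed, 5 were above 0 and 8 below, with a median of -0.24. Groups did not overlap for 5 of the 13, in 4 of them with the cKO libraries lower (23.3% over all tested genes, both directions). Itpr3, an inositol trisphosphate receptor, had 536, 432 and 310 CPM in cKO libraries, against 939, 759 and 650 CPM in controls (log2 fold change -0.88, SE 0.218, edgeR adjusted p 0.0973). Atp2a2, the calcium pump of the endoplasmic reticulum, had 321 ± 30.7 CPM in cKO libraries and 485 ± 112 CPM in controls. The paralog Jph3 had 5.79 ± 2.80 CPM in cKO libraries and 12.2 ± 1.59 CPM in controls, with groups that did not overlap (log2 fold change -1.08, SE 0.355, edgeR adjusted p 0.166). Neuronal and glial markers held 0 of 7 tested genes past the threshold, and summed to 196, 260 and 94.9 CPM in cKO libraries, against 392, 249 and 231 CPM in controls. Over the cKO libraries the sum had the same order as Jph4, highest in replicate 2 and lowest in replicate 3. The list had 4 genes above 0 and 3 below, with a median of 0.82. The most abundant gene of that list, the tubulin gene Tubb3, had 183, 251 and 70.6 CPM in cKO libraries, against 381, 235 and 219 CPM in controls, and it made up most of the sum. The glial genes S100b and Sox10, with the lowest p of the list, had every cKO library above every control. S100b, a calcium-binding protein, had 3.85 ± 2.45 CPM in cKO libraries and 0.623 ± 0.222 CPM in controls (log2 fold change 2.62, SE 0.566, edgeR adjusted p 0.0736). Sox10, a transcription factor of neural crest and glia, had 27, 10 and 71 reads in cKO libraries, against 0, 4 and 2 in controls (edgeR adjusted p 0.0862). The list thus held genes on both sides. The part of neurons and glia in the values of Jph4 was not tested.

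Gnrh1 and Pmch encode the precursors of peptide hormones best known from the hypothalamus, gonadotropin-releasing hormone and melanin-concentrating hormone, and both had few reads. Gnrh1 had 107, 37 and 70 reads in cKO libraries, against 49, 24 and 54 in controls, or 3.46, 1.08 and 1.74 CPM against 1.33, 0.621 and 1.40 CPM. The groups overlapped, and Pkm cKO replicate 1 was the highest (log2 fold change 0.90, SE 0.541, edgeR adjusted p 0.430). Without that library the log2 fold change was 0.33. Pmch had 71, 24 and 23 reads in cKO libraries, against 5, 8 and 10 in controls, or 2.29, 0.698 and 0.571 CPM against 0.136, 0.207 and 0.259 CPM. Every cKO library lay above every control, and Pkm cKO replicate 1 was far above the other 2. In all 3 controls Pmch lay under the filter's minimum, about 0.260 CPM of the unscaled library, so its test is no independent support for a difference. The log2 fold change was 2.53 (SE 0.692, edgeR adjusted p 0.114, DESeq2 adjusted p 0.0248), and 1.64 without Pkm cKO replicate 1.

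The exons of Pmch overlap those of Parpbp, a gene of DNA repair on the opposite strand, over 435 of 749 bases (58.1%) in the GENCODE M21 annotation, and it is not known whether the counting used strand. Reads of Pmch and Parpbp may therefore not be told apart. Parpbp, named for this overlap, had 197, 205 and 229 reads in cKO libraries, against 136, 212 and 209 in controls (log2 fold change 0.30, SE 0.287, edgeR adjusted p 0.629). In CPM it stood at 6.36, 5.96 and 5.69 in cKO libraries, against 3.70, 5.49 and 5.42 in controls, so its cKO libraries too lay above all controls. Of the genes that process such precursors or receive the peptides, 7 were tested and 1 passed. This was Pcsk2, a prohormone convertase, which fell to 1.94, 2.35 and 2.81 CPM in cKO libraries, against 9.97, 8.54 and 7.84 CPM in controls (log2 fold change -1.89, SE 0.293, edgeR adjusted p 0.0444). Like all other genes it was not called when any 1 control was left out. Cpe, a carboxypeptidase that trims peptides, had 146 ± 32.9 CPM in cKO libraries and 105 ± 14.7 CPM in controls. Mchr1, the receptor of melanin-concentrating hormone, had 1.24 ± 0.400 CPM in cKO libraries and 0.646 ± 0.250 CPM in controls. The list had 4 genes above 0 and 3 below, with a median of 0.015.

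Cyp2s1 encodes a cytochrome P450 that can be induced through the aryl hydrocarbon receptor and acts on retinoids. It stood at 8.33, 15.2 and 11.7 CPM in cKO libraries, against 8.82, 11.8 and 7.78 CPM in controls. The groups overlapped, and replicate 2 was the highest of each group (log2 fold change 0.31, SE 0.282, edgeR adjusted p 0.607). Leaving out Pkm cKO replicate 2 gave 0.089. Of 9 tested genes of the aryl hydrocarbon receptor and of retinoid P450 enzymes, 0 passed, 5 were above 0 and 4 below, with a median of 0.35. Cyp26b1, which degrades retinoic acid, had 9.40, 4.88 and 21.0 CPM in cKO libraries, against 1.74, 2.36 and 2.44 CPM in controls (log2 fold change 2.43, SE 0.496, edgeR adjusted p 0.0699). Cyp1b1, a target of the receptor, had 19.4 ± 2.95 CPM in cKO libraries and 12.9 ± 0.676 CPM in controls, and the quinone reductase gene Nqo1 4.27 ± 2.03 CPM in cKO libraries and 2.15 ± 0.353 CPM in controls. All 3, named for the lowest p of the list, had cKO libraries above all controls. This held for 4 of the 9 tested genes of the list, against 11.2% of all tested genes. Cyp26a1 and Ahrr, named as the lowest of the list, had log2 fold changes of -0.77 and -0.74, with groups that overlapped.

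**Figure D2:**
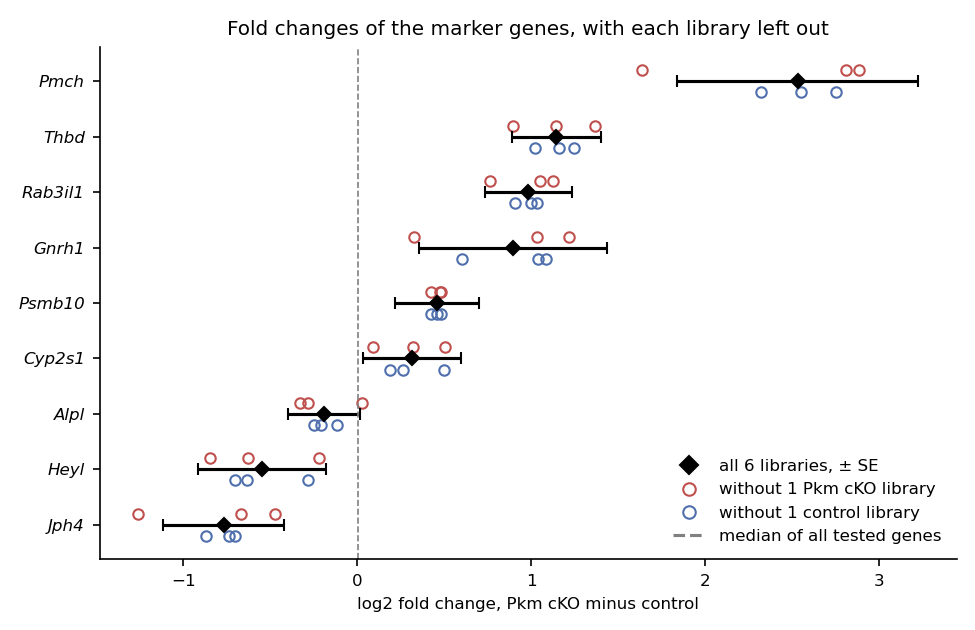
Log2 fold change (horizontal axis, Pkm cKO minus control) of each marker gene with all 6 libraries (black diamonds, ± SE) and with 1 library left out (open circles); the dashed line is the median of all tested genes. Alpl reaches 0.030 without Pkm cKO replicate 3, and each of the other 8 genes stays on its side of 0.

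**Figure D3:**
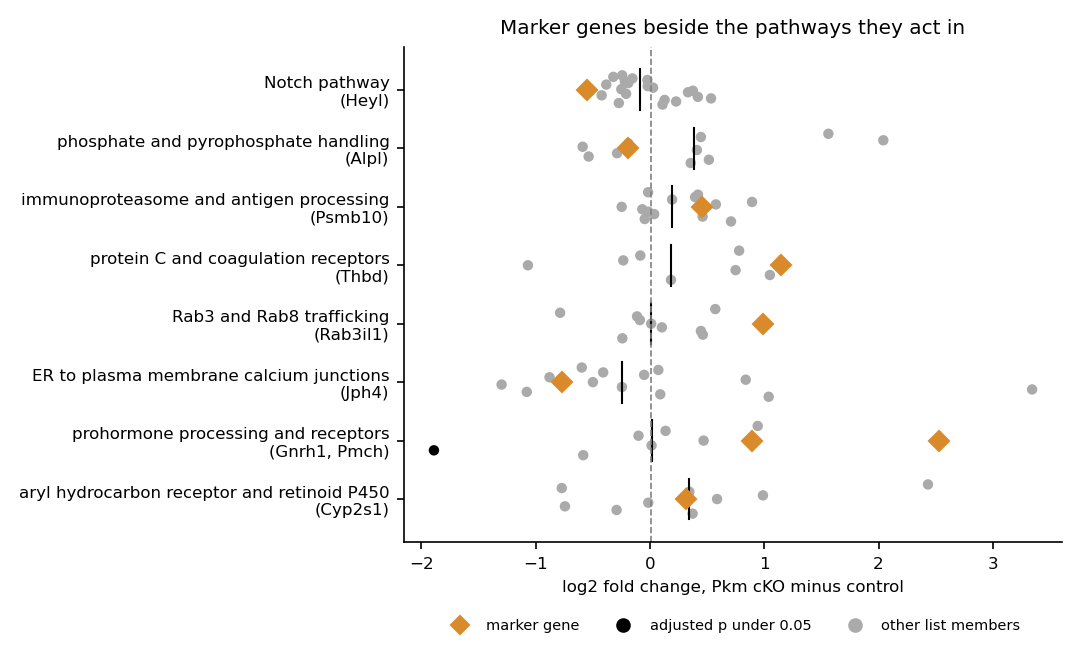
Log2 fold change (horizontal axis, Pkm cKO minus control) of the marker genes (orange diamonds) beside the tested genes of the list each acts in (dots; black for an adjusted p under 0.05, vertical bars for the list's median), with a dashed line at the median of all tested genes. The black dot is Pcsk2, at -1.89.

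Promoter sequences are shown for 3 of the 4 genes whose cKO libraries lay above all controls, since these genes stood on the same side. They were taken from RefSeq for the build GRCm38.p6, which is not the mm39 of the counts. The tables held a window of 250 bases before to 50 after the start for 6 of the 9 genes, and for genes with several starts the first listed was used. Thbd, Gnrh1 and Heyl had no entry. Capitals mark matches to 5 motifs, chosen with the values known and searched on both strands. The motif CACGTG is an E-box, and TGGGAA is the core bound by the Notch effector RBPJ. The motif TGANTCA is bound by AP-1, and GCGTG is the core bound by the aryl hydrocarbon receptor. The motif TATAAA is a core promoter element. No 2 matches overlap in these windows.
Rab3il1, chr19:10017944-10018243, plus strand: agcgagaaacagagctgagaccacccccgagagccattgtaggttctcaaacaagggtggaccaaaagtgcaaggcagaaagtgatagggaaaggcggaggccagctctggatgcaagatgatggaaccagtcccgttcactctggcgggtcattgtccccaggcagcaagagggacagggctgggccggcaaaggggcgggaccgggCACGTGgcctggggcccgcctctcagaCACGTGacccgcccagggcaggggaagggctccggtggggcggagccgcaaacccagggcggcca
Psmb10, chr8:105938343-105938642, minus strand: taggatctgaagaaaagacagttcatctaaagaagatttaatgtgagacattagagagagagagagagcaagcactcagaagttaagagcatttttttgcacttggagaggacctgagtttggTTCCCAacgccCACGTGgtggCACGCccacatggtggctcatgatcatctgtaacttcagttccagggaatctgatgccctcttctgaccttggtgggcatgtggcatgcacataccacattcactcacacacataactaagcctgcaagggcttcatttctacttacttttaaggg
Pmch, chr10:88090822-88091121, plus strand: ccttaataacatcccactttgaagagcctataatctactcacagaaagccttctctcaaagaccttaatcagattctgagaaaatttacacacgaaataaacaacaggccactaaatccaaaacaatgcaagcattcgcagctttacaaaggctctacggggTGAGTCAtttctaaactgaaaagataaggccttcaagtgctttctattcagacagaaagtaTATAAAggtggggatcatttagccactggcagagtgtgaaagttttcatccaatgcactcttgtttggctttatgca
The E-box CACGTG was found at 2 places in the window of Rab3il1 and at 1 place in that of Psmb10, and 7.24% of all 27025 promoter windows (1 per gene) hold it. The window of Psmb10 also held 1 match to TGGGAA, which 25.5% of windows hold, and 1 to GCGTG, which 32.5% hold. That of Pmch held 1 match to TGANTCA (7.93% of windows) and 1 to TATAAA (14.2%). The windows of Alpl, Cyp2s1 and Jph4 held none of the 5 motifs. These matches describe the letters only.

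The listed markers were set beside other lists of the enamel organ, and the differences between lists were not tested. Other stratum intermedium markers held 0 of 9 past the threshold, with 3 above 0 and 6 below and a median of -0.21. The 9 genes described here, Pmch among them, had a median of 0.46. They summed to 7045, 6812 and 5756 CPM in cKO libraries, against 7993, 7711 and 7059 CPM in controls. Every cKO library thus had a lower sum than every control, by a small margin between Pkm cKO replicate 1 and control replicate 3. Gja1, Dsp and Perp made up most of the sum. Gene by gene, every cKO library lay below every control in 1 of the 9 (Jag1), against 12.2% of all tested genes. Perp, a desmosome-associated membrane protein of stratified epithelia, had 1083 ± 213 CPM in cKO libraries and 1368 ± 58.4 CPM in controls. The gap junction gene Gja1 had 2049 ± 908 CPM in cKO libraries and 2767 ± 454 CPM in controls, and the desmosome gene Dsp 1677 ± 357 CPM in cKO libraries and 1514 ± 6.34 CPM in controls. In bulk RNA, a change in the number of cells of a layer and a change in RNA per cell cannot be told apart.

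Of 12 ameloblast genes, 11 were below 0, with a median of -1.92, and in 9 every cKO library lay below every control, against 12.2% of all tested genes. That list summed to 7623, 2721 and 1335 CPM in cKO libraries, against 28268, 24485 and 12887 CPM in controls. Odam, an ameloblast and junctional epithelium protein gene, passed, with 186 ± 28.1 CPM in cKO libraries and 437 ± 18.4 CPM in controls. Outer enamel epithelium and stem cell markers held 0 of 10 past the threshold and had a median of 1.01, with 8 above 0. Their sum was 2474, 2337 and 4437 CPM in cKO libraries, against 2362, 2479 and 2038 CPM in controls. In 1 of the 10 every cKO library lay above every control, and in 1 below. Sox2, Lgr5 and Lrig1, named for their spread, overlapped between the groups. They had 13.8, 16.9 and 55.4 CPM in Pkm cKO replicate 3, against 1.32, 0.452 and 11.3 CPM in replicate 1 and 2.82, 1.77 and 15.1 CPM in replicate 2. Slco4a1 of that list, a transporter gene, had 62.6 ± 6.41 CPM in cKO libraries and 102 ± 12.2 CPM in controls, and the Wnt antagonist gene Sfrp5 had 8.37, 22.9 and 6.85 CPM in cKO libraries, against 2.53, 4.01 and 4.33 CPM in controls. Krt15, a keratin gene, had 16.6, 32.9 and 849.8 CPM in cKO libraries, against 40.1, 28.5 and 27.9 CPM in controls.

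**Figure D4:**
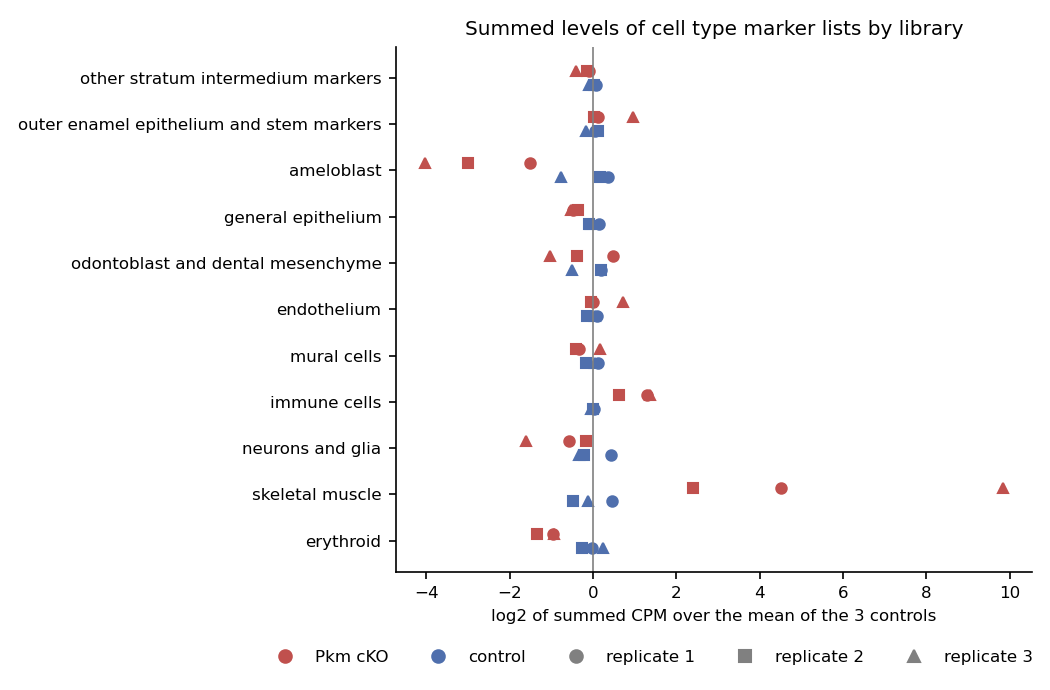
Summed level of each cell type marker list in each library, as log2 of the sum over the mean of the 3 controls (horizontal axis); red is Pkm cKO, blue is control and shapes are replicates 1 to 3. Immune and skeletal muscle sums lie above all controls in every cKO library. Ameloblast, general epithelium, erythroid and other stratum intermedium sums lie below, the last by a small margin (at most 7045 CPM in cKO libraries and at least 7059 CPM in controls).

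The libraries were also scaled to the general epithelial genes, whose part in the values above was not tested. Of 14 general epithelial genes, 0 passed, 5 were above 0 and 9 below, with a median of -0.096. Cdh1, the epithelial cadherin, had 655 ± 37.5 CPM in cKO libraries and 1123 ± 139 CPM in controls, and the basal keratin genes Krt14 and Krt5 had 1596 ± 353 and 5216 ± 527 CPM in cKO libraries, against 2707 ± 528 and 7018 ± 607 CPM in controls. Krt5 and Krt14 made up most of the sum of these 14 genes, so a scaling to that sum mainly followed these keratin genes. When libraries were scaled to it, the median log2 fold change of all genes was 0.46. Under that scaling Thbd, Rab3il1, Pmch and Psmb10 passed (log2 fold changes 1.61, 1.44, 2.97 and 0.91, edgeR adjusted p 0.0137, 0.0177, 0.0242 and 0.0471), along with 2595 of all tested genes. Alpl stood at 0.26 under that scaling, which moves all genes alike, and so remained below the median of all genes.

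By the pattern over the 6 libraries, the genes most like the 3 most abundant markers were found among 11180 protein-coding genes with at least 5 CPM. The points share libraries, so these are descriptions only. For Alpl they were Unc119b, Rnf10 and Tusc2 (Pearson r of log2 CPM 0.994, 0.992 and 0.991, n = 6 libraries). For Jph4 they were Tmem161a, Ccdc181 and Fbxo42 (0.994, 0.994 and 0.992). For Heyl they were Insyn2b, Arid3a and Rrbp1 (0.996, 0.995 and 0.993). Each of these genes was lowest in Pkm cKO replicate 3, as were Alpl, Jph4 and Heyl.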

How the data were processed

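RNA was sequenced from 3 Pkm cKO and 3 control samples, grouped by the labels. The table that the authors deposited holds whole-number counts by gene symbol. The submitters' processing notes name fastp, HISAT2 and mm39. Which program counted, whether strand was used, and tool versions are not given here, so reads of overlapping genes may not be told apart. Total counts were 30588350 to 39415700, and counting error mattered mainly for Gnrh1 and Pmch. No pair of libraries was a duplicate (chi-square per gene at least 26.5).

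All 15930 genes kept by filterByExpr were fitted together with TMM scaling and edgeR's quasi-likelihood test (edgeR 4.0.16, R 4.3.3, robust), two-sided, with Benjamini-Hochberg adjustment over all genes. Standard errors were derived from the log2 fold change and its F statistic. Alternatives were other scalings and filters, leaving out each library, DESeq2 1.42.0, limma-voom (limma 3.58.1), a replicate block and edgeR without robust estimation. Exon lengths and overlaps came from GENCODE M21 by symbol. The 9 genes and all lists were chosen with earlier results of these data known. From each pathway list the genes past the threshold and those of lowest p, up to 3, are named, and from each cell type list up to 2 of lowest p and 2 of highest level.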

Additional observations from a re-analysis of the deposited data

How the results depend on the processing

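The count of all genes called was 88 (55 higher and 33 lower in cKO libraries). It was 55 with DESeq2 size factors (39 higher, 16 lower), 75 with upper-quartile scaling (57 higher, 18 lower), 2595 when scaled to the epithelium list (2548 higher, 47 lower), 518 without a filter, 708 with a replicate block, 1118 with DESeq2, 2 with limma-voom and 2 without robust estimation. Leaving out 1 library gave 0 to 640, with 0 without control replicate 1, 2 or 3 (1532, 1766 and 2495 genes at an unadjusted p under 0.05). Of the 9 markers, 0 were called, against 4 when scaled to epithelium, 1 without a filter (Thbd, log2 fold change 1.14), 3 with DESeq2 (Thbd 1.15, Rab3il1 0.99, Pmch 2.57), 1 with the replicate block (Rab3il1 0.96) and 0 to 2 with 1 library left out. The replicate numbers were not taken as pairs: deviations from the group mean of same-numbered libraries correlated at 0.235, 0.0150 and 0.215, and not every library correlated best with its own number. The median of the 9 was 0.91 when scaled to epithelium and 0.40 with at least 1 CPM in 3 samples, where Pmch dropped out, and 0.42 to 0.50 with 1 library left out. Scaled to epithelium, Thbd stood at 1.61, Rab3il1 at 1.44, Pmch at 2.97 and Psmb10 at 0.91. With 1 library left out, Thbd ranged over 0.89 to 1.37, Jph4 over -1.26 to -0.47 and Alpl over -0.33 to 0.030. Alpl was at 0.030 without Pkm cKO replicate 3. When scaled to epithelium it was at 0.26, but this scaling shifts all genes alike (median 0.46), so Alpl stayed below that median. The other 8 genes kept their sign in all alternatives that gave a value. The causes were not tested. Depth limits Pmch, with 5 to 10 reads in a control.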

Other observations

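A ratio within each library does not depend on how libraries are scaled. Reads of each other marker were therefore set against those of Alpl, a comparison chosen after the data were seen. Of 8 ratios, 4 had cKO libraries above all controls and 0 below, those of Thbd, Rab3il1, Pmch and Psmb10. These are the same 4 genes whose CPM did not overlap between the groups, so the count is no further support. Pmch had also passed the filter only through its cKO libraries. Over all other tested genes, 13.8% had ratios to Alpl above all controls in every cKO library and 3.57% below. Alpl itself was lowest in Pkm cKO replicate 3, which raises the ratios there. Thbd had 4.97, 3.13 and 10.7 reads per 100 Alpl reads in cKO libraries, against 2.06, 2.74 and 1.87 in controls. Rab3il1 had 1.25 to 3.52 in cKO libraries, against 0.672 to 0.924 in controls. Jph4 had 8.04, 13.9 and 8.56 in cKO libraries, against 15.5, 17.9 and 13.8 in controls, and its groups overlapped by a small margin. Each of the 4 had an exact two-sided permutation p of 0.1, the smallest that 3 against 3 libraries can give, and 0.2 after Benjamini-Hochberg adjustment over the 8.

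Lists of cells not yet described gave the following values. Mesenchymal genes held 0 of 18 past the threshold, with 12 above 0, 6 below and a median of 0.41. The tooth mesenchyme factors Barx1 and Msx1, with the lowest p, had 66.9 ± 2.31 and 63.3 ± 13.4 CPM in cKO libraries, against 38.0 ± 5.83 and 30.1 ± 6.85 CPM in controls. The most abundant genes of the list, Col1a1 and Col1a2, overlapped between the groups (log2 fold changes -0.086 and -0.14). The odontoblast gene Dspp, named as the lowest of the list, stood at -1.49, also with groups that overlapped. Mural cell genes held 0 of 9 past the threshold, with a median of 0.036. Among them the smooth muscle gene Tagln had 43.3 ± 10.8 CPM in cKO libraries and 86.1 ± 22.0 CPM in controls, and the pericyte receptor gene Pdgfrb 74.3 ± 30.5 CPM in cKO libraries and 39.0 ± 4.75 CPM in controls. Of 6 tested skeletal muscle genes, 6 were above 0 and 0 passed; Acta1 had 41.7, 8.37 and 769 CPM in cKO libraries, against 1.03, 0.259 and 0.649 CPM in controls. Erythroid genes had 3 of 6 past the threshold, all lower in cKO libraries, with a median of -1.03, among them Hbb-bt with 25.1 ± 6.40 CPM in cKO libraries and 63.9 ± 9.34 CPM in controls.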
